A study of Homo sapiens with 30 samples.

Results

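Drug-metabolizing cytochrome P450 genes of the CYP2 and CYP3A families and the 2 nuclear receptors that control many of them were followed in HepG2 cells given herbal extracts. The 9 genes were chosen by name: CYP3A4, CYP3A5, CYP3A7, CYP2B6, CYP2C8, CYP2E1, CYP2D6, NR1I2 (the receptor PXR) and NR1I3 (the receptor CAR). Each matched 1 of the 60675 gene rows of the deposited table. Of the 9 genes, 6 passed the filter on low counts and were tested, and 5 of these averaged at least 10 counts a library. The rest were taken as too low to judge. NR1I3, the lowest of the 5, had 12 to 33 counts a library, so small changes in it could not be judged.

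HepG2 is a human liver carcinoma line, and all libraries came from this line after 24 h of exposure. Vehicle cultures received DMSO, at 0.1% in the sample labels and 2% in the series text. The treated cultures received an ethanol extract of 1 of 4 traditional formulas, Palmul-tang, Sibjeondaebo-tang, Samul-tang or Sagunja-tang, at 20 µg/mL (low), 100 µg/mL (medium) or 500 µg/mL (high). The 13 groups held 30 libraries: 3 for vehicle and for each dose of Palmul-tang and Sibjeondaebo-tang, 2 for each dose of Samul-tang and 1 for each dose of Sagunja-tang. The labels do not say whether replicates came from different cultures, and the p-values therefore cover the spread among these libraries alone, which may be technical.

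PXR and CAR are receptors that sense drugs, bile acids and plant compounds. Bound to DNA together with the receptor RXR, they raise transcription of P450s, conjugating enzymes and transporters, and CYP3A4 and CYP2B6 are their best known targets. HepG2 cells are known to have lost much of the P450 expression of adult liver while keeping fetal liver genes, among them CYP3A7, the main CYP3A form of the fetal liver. CYP3A4 and CYP3A5 are its adult counterparts.

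The library totals ran from 21570416 to 37707232 expected counts. All 10 hepatocyte markers passed the filter, and their summed level was 54054 to 65186 CPM, the count scaled to a fixed library total. Fibroblast markers summed to 3.97 to 7.63 CPM in 29 libraries, and PDGFRB alone stood at 3.83 to 7.47 CPM over all 30. The sum of these markers was 33.9 CPM in Sibjeondaebo-tang low replicate 3, where COL1A1 reached 8.29 CPM. The CYP3A5 and CYP3A7 calls that involve that group are therefore also given without this library. Other main results for that group include it. Among immune markers PTPRC had no count in 29 of 30 libraries and CD3E in 28 of 30, while LYZ averaged 1457 CPM. All sample titles carry the same batch letter, E. The sample codes in the table's header put vehicle libraries in one set, Samul-tang and Sagunja-tang in another and Palmul-tang and Sibjeondaebo-tang in the third. The mitochondrial share of counts was 12.4% to 14.5% in vehicle and 11.2% to 19.7% in extract libraries. What the sets stand for is not given, so the extracts and the sets cannot be told apart in any comparison with vehicle. Comparisons of high with low dose lie within a set.

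The 3 CYP3A genes lie side by side on the minus strand of chromosome 7 (GRCh38, GENCODE 29): CYP3A5 at chr7:99648194-99680026, CYP3A7 at chr7:99684957-99735196 and CYP3A4 at chr7:99756960-99784265. PXR is known to bind an everted repeat in the CYP3A4 promoter, made of the half-sites TGAACT and AGGTCA with 6 bases between them. The 250 bases before each start (RefSeq, GRCh38.p14, minus strand) are shown because CYP3A7 and CYP3A5 fell from low to high dose in at least 1 formula while CYP3A4 was barely read. They cover chr7:99784185-99784434 for CYP3A4, chr7:99679997-99680246 for CYP3A5 and chr7:99735197-99735446 for CYP3A7. Capitals mark the 18 bases that best match the repeat.
CYP3A4: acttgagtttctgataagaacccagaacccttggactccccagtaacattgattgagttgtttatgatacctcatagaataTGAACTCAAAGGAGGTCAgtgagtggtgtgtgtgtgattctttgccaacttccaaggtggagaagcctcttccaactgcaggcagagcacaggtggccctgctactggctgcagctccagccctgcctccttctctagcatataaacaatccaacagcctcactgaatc
CYP3A5: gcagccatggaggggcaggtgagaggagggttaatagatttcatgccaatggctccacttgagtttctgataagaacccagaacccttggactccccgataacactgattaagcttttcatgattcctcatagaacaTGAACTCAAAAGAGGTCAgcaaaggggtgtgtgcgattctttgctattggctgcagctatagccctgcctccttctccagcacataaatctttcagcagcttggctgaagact
CYP3A7: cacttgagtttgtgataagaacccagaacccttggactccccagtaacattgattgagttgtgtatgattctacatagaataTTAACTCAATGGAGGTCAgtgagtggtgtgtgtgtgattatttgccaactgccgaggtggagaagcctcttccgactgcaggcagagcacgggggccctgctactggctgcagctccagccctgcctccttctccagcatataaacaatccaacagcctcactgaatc

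CYP3A4 and CYP3A5 held the repeat exactly, while CYP3A7 carried G2T, counted from 1 at the 5′ end of the repeat. The exact repeat, searched on both strands, was in 3 of 34943 RefSeq windows that run from 250 bases before to 50 after a start (0.00859%). The half-site AGGTCA alone, which the repeat contains, was in 13.8% of windows and TGAACT in 10.5%. In these windows CYP3A4 and CYP3A7 were identical at 282 of 299 aligned bases. CYP3A4 and CYP3A5 matched at 207 of 241 aligned bases, and CYP3A5 and CYP3A7 at 204 of 242. Of the other members, CYP2B6, CYP2C8, CYP2E1, NR1I2 and NR1I3 had a window, and none of them held the exact repeat. A match describes the sequence only, and these data hold no measurement of binding.

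Levels of the members differed by orders of magnitude. Per kilobase of all annotated exons, CYP3A7 averaged 3.17 CPM and NR1I2 2.76 CPM over the 30 libraries, followed by CYP3A5 at 1.04 CPM, CYP2D6 at 0.420 CPM and NR1I3 at 0.219 CPM. CYP3A4 stood at 0.0922 CPM per kilobase, CYP2C8 at 0.0562, CYP2E1 at 0.0151 and CYP2B6 at 0.00167. On the length of the principal transcript the order of the first 6 genes was the same, and CYP2E1 (0.0760) and CYP2C8 (0.0752) changed places. CYP3A7, NR1I2 and CYP3A5 then stood at 6.13, 5.42 and 4.08 CPM per kilobase. How far CYP3A5 lies below CYP3A7 thus depends on the length used. All other levels below are CPM without division by length.

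**Figure D1:**
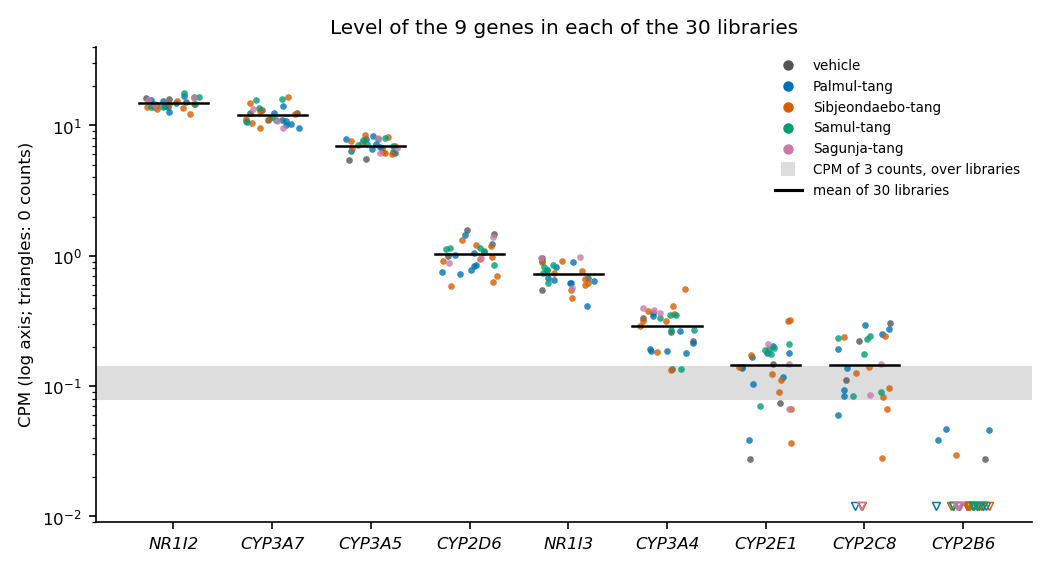
CPM of the 9 genes in each of the 30 libraries on a log axis, coloured by formula, with the mean of all libraries as a bar, the CPM worth of 3 counts as a grey band and triangles for libraries with 0 counts. NR1I2, CYP3A7 and CYP3A5 sit between 5.47 and 17.8 CPM in every library, CYP2B6 is at 0 counts in 25 libraries, and CYP2C8 and CYP2E1 lie around the band.

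PXR mRNA differed little between groups. NR1I2 (chr3:119780484-119818485, plus strand) was read with 333 to 639 counts a library. Vehicle libraries stood at 15.9, 15.2 and 16.2 CPM. At the high dose, Palmul-tang libraries stood at 15.0, 12.7 and 16.8 CPM, Sibjeondaebo-tang libraries at 14.0, 13.3 and 12.3 CPM and Samul-tang libraries at 14.6 and 14.0 CPM. The Sibjeondaebo-tang and Samul-tang libraries lay below all vehicle libraries, and the Palmul-tang libraries spanned them. At other doses, Palmul-tang medium (log2 fold change -0.16, adjusted p = 0.134, edgeR) and Sibjeondaebo-tang low libraries (-0.14, 0.182) also lay below all vehicle libraries. Samul-tang medium libraries lay above all of them (0.12, adjusted p = 0.338, edgeR). NR1I2 was lower in Sibjeondaebo-tang high than in vehicle, by a log2 fold change of -0.26 ± 0.08 (SE; adjusted p = 0.0106, edgeR's quasi-likelihood test with Benjamini-Hochberg adjustment over 16083 genes, 3 against 3 libraries). Without Sibjeondaebo-tang high replicate 3 the adjusted p was 0.0558.

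Low-dose NR1I2 stood at 15.5, 14.7 and 15.6 CPM in Palmul-tang, at 14.3, 14.6 and 14.0 CPM in Sibjeondaebo-tang and at 16.5 and 13.9 CPM in Samul-tang. The high against low log2 fold change of NR1I2 was -0.05 (95% interval -0.21 to 0.11) for Palmul-tang, -0.12 (-0.28 to 0.05) for Sibjeondaebo-tang and -0.08 (-0.27 to 0.11) for Samul-tang. None of these passed the test. The highest group mean of NR1I2 was 17.1 CPM in Samul-tang medium and the lowest 13.2 CPM in Sibjeondaebo-tang high. Of the 12 neighbouring pairs in the order of group means, 10 had overlapping libraries.

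CAR mRNA was low and no change was detected. NR1I3 (chr1:161229666-161238302, minus strand) had 12 to 33 counts a library, with group means from 0.564 CPM in Sagunja-tang medium to 0.9754 CPM in Sagunja-tang low. Vehicle libraries stood at 0.551, 0.913 and 0.969 CPM, a range that holds 11 of the 12 extract group means. It passed edgeR's test in 0 of 13 comparisons, had an unadjusted p under 0.05 in 0 and passed DESeq2 in 0 of the 7 comparisons where that tool gave an adjusted p. High against low intervals ran from -0.25 to 0.83 for Palmul-tang, -0.58 to 0.51 for Sibjeondaebo-tang and -0.44 to 0.80 for Samul-tang on the log2 scale, so changes below these limits could not be seen at this depth. NR1I3 overlaps the opposite-strand gene TOMM40L, which had 579 to 1176 expected counts, and 29 of 30 NR1I3 values were not whole. The strand setting of the counting was not stated, so reads of the pair may be mixed.

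CYP3A7 fell with dose in each formula that had replicates. It was read with 229 to 588 counts a library. In Palmul-tang the low-dose libraries stood at 12.4, 14.1 and 13.1 CPM, the medium at 11.0, 10.3 and 10.8 CPM and the high at 10.1, 9.61 and 10.8 CPM. In Sibjeondaebo-tang the low-dose libraries stood at 12.9, 16.4 and 14.8 CPM, the medium at 11.3, 12.3 and 13.03 CPM and the high at 9.48, 10.5 and 11.2 CPM. In Samul-tang the low-dose libraries stood at 16.0 and 15.6 CPM, the medium at 13.6 and 11.6 CPM and the high at 10.7 and 10.9 CPM. All high-dose libraries lay below all low-dose libraries of the same formula. A lower level in these bulk samples cannot be told apart from fewer cells that express the gene.

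From low to high dose, CYP3A7 fell by 0.38 ± 0.09 on the log2 scale in Palmul-tang (SE; adjusted p = 0.00462, edgeR's quasi-likelihood test; 0.766-fold). The decrease was 0.50 ± 0.09 in Sibjeondaebo-tang (log2 fold change -0.50, adjusted p = 7.16e-05, edgeR; 0.709-fold). The log2 fold change was -0.55 ± 0.10 in Samul-tang (adjusted p = 0.00175, edgeR; 0.684-fold). It was the 1 member called in Palmul-tang and in Samul-tang, where 6.78% and 1.42% of all tested genes were called. CYP3A7 and CYP3A5 were the 2 of 6 tested members called in Sibjeondaebo-tang, where 19.8% of genes were called. The CYP3A7 call held under all 12, 12 and 10 alternatives run for Palmul-tang, Sibjeondaebo-tang and Samul-tang, with adjusted p up to 0.0498, 0.00215 and 0.0492.

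**Figure D2:**
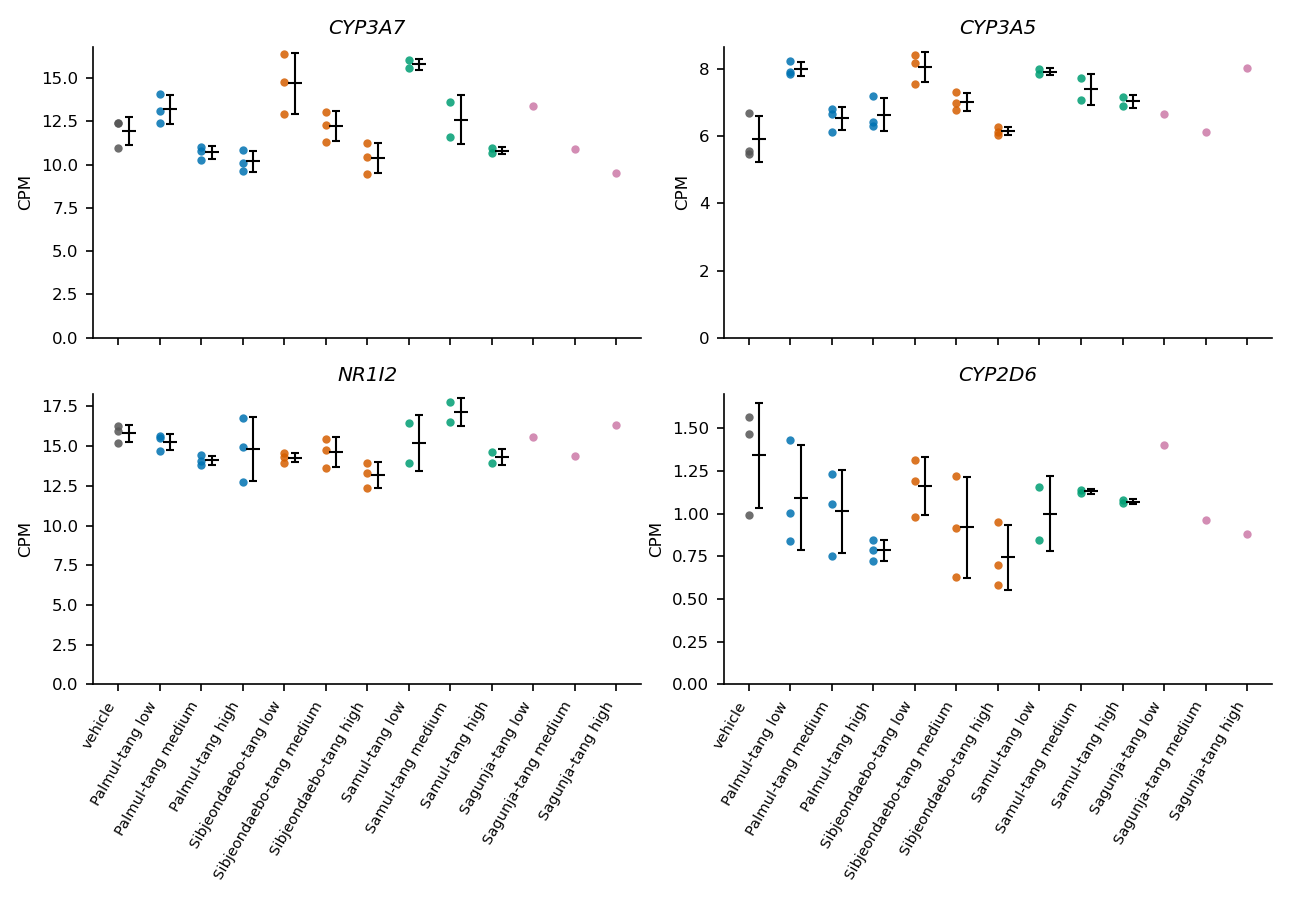
CPM of CYP3A7, CYP3A5, NR1I2 and CYP2D6 in the 13 groups on linear axes from 0, with a point for each library and the mean ± SD beside groups of 2 or 3 libraries. CYP3A7 steps down from low to high dose in each formula, from 15.8 to 10.8 CPM in Samul-tang, and CYP3A5 is highest at the low dose of the 3 formulas with replicates.

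The single Sagunja-tang libraries gave CYP3A7 levels of 13.4 CPM at the low dose (exact Poisson 95% interval 11.96 to 14.96, counting error only), 10.9 CPM at the medium (9.74 to 12.1) and 9.51 CPM at the high (8.38 to 10.7). The high to low log2 ratio was -0.49, with no replicate check. These 3 libraries followed the same order as the replicated formulas.

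Against vehicle, the position of CYP3A7 depended on dose. Vehicle libraries stood at 12.4, 11.0 and 12.4 CPM. At the low dose CYP3A7 was higher than vehicle in Sibjeondaebo-tang (log2 fold change 0.31 ± 0.08, adjusted p = 0.00779, edgeR) and Samul-tang (0.41 ± 0.09, adjusted p = 0.00409, edgeR). Palmul-tang low was at 0.16 ± 0.09 (adjusted p = 0.192, edgeR). The 3 low-dose comparisons share the vehicle libraries. Without Sibjeondaebo-tang low replicate 2 or vehicle replicate 2, the adjusted p for Sibjeondaebo-tang low was 0.0922 or 0.0665. Without Samul-tang low replicate 2 the adjusted p for Samul-tang low was 0.0521, with the remaining library assumed to vary like the other groups.

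At the high dose CYP3A7 was lower than vehicle in Palmul-tang (log2 fold change -0.23 ± 0.09, adjusted p = 0.0489, edgeR). This call was lost with DESeq2 (adjusted p = 0.0840), with median-ratio size factors (0.0552), without the filter (0.0774) and without any 1 of 4 libraries: vehicle replicate 1 (0.148) or 3 (0.142) and Palmul-tang high replicate 1 (0.105) or 2 (0.184). Sibjeondaebo-tang high stood at -0.19 ± 0.09 (adjusted p = 0.0929, edgeR) and Samul-tang high at -0.14 ± 0.10 (adjusted p = 0.332, edgeR). The Sibjeondaebo-tang value passed without vehicle replicate 2 (adjusted p = 0.0368) and without its own replicate 3 (0.0463).

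Over all 13 groups CYP3A7 ran from 15.8 CPM in Samul-tang low to 9.51 CPM in Sagunja-tang high. The 4 low-dose groups held the 4 highest means, and vehicle was the seventh. Of the 12 neighbouring pairs in this order, 10 had overlapping libraries, and each of the other 2 included a single Sagunja-tang library. CYP3A7 shares reads with the readthrough gene CYP3A7-CYP3A51P, which had 0 to 10.9 expected counts, and 22 of 30 CYP3A7 values were not whole. With the counts of both genes summed, no CYP3A7 call changed.

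Hepatocyte markers also moved between low and high dose. Their summed level was 62657 to 63719 CPM in Palmul-tang low and 54941 to 58075 CPM in Palmul-tang high. In Sibjeondaebo-tang it was 62875 to 64506 CPM at the low and 59923 to 61769 CPM at the high dose, and in Samul-tang 64584 to 65186 and 57555 to 59191 CPM. Of the 10 markers, 5 were lower at the high dose in Palmul-tang, 4 lower and 1 higher in Sibjeondaebo-tang and 1 lower in Samul-tang (edgeR). Beside these calls, 6.78%, 19.8% and 1.42% of all tested genes were called in these formulas, in either direction. Of the 2 fibroblast markers tested, COL1A1 and PDGFRB, 1 was lower in Palmul-tang, 2 in Sibjeondaebo-tang and 1 in Samul-tang. The summed level of the 6 immune markers, most of it LYZ, was higher at the high dose in Palmul-tang (1358 to 1502 CPM at the low and 1665 to 1774 CPM at the high dose) and in Sibjeondaebo-tang (1406 to 1507 and 1623 to 1827 CPM). In Samul-tang it was 1383 to 1559 CPM at the low and 1570 to 1659 CPM at the high dose. LYZ was the 1 immune marker called higher in Palmul-tang and in Sibjeondaebo-tang, and none was called in Samul-tang (edgeR). The part of these shifts in the CYP3A7 result was not tested.

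CYP3A5, the adult form that some people lack, was higher than vehicle at the low dose of the 3 replicated formulas. It had 139 to 293 counts a library, all of them whole. Vehicle libraries stood at 5.47, 5.56 and 6.71 CPM. Low-dose libraries stood at 7.90, 7.87 and 8.25 CPM in Palmul-tang, at 7.57, 8.18 and 8.42 CPM in Sibjeondaebo-tang and at 7.845 and 7.997 CPM in Samul-tang. Every low-dose library of these formulas lay above every vehicle library.

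The low-dose log2 fold change of CYP3A5 against vehicle was 0.44 ± 0.09 in Palmul-tang (adjusted p = 0.000378, edgeR's quasi-likelihood test; 1.36-fold). It was 0.45 ± 0.08 in Sibjeondaebo-tang (adjusted p = 0.000273; 1.37-fold) and 0.43 ± 0.09 in Samul-tang (adjusted p = 0.00344; 1.34-fold), both by edgeR with the same 3 vehicle libraries. The first 2 calls held under all 11 alternatives each. The Samul-tang call held under 9 of 10, the exception being without its replicate 3 (adjusted p = 0.0552). CYP3A5 was the 1 member called in Palmul-tang low, where 23.2% of genes were called. It was 1 of 2 called in Sibjeondaebo-tang low (23% of genes) and 1 of 2 in Samul-tang low (11.3% of genes).

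At 100 µg/mL, CYP3A5 stood at 6.81, 6.65 and 6.14 CPM in Palmul-tang, at 6.77, 6.99 and 7.32 CPM in Sibjeondaebo-tang and at 7.72 and 7.08 CPM in Samul-tang. The Sibjeondaebo-tang and Samul-tang libraries lay above all vehicle libraries. Against vehicle, CYP3A5 was higher in Sibjeondaebo-tang medium (log2 fold change 0.25 ± 0.09, adjusted p = 0.0263, edgeR) and Samul-tang medium (0.33 ± 0.09, adjusted p = 0.0125, edgeR), and stood at 0.15 ± 0.09 in Palmul-tang medium (adjusted p = 0.237). The Sibjeondaebo-tang call held under 4 of 11 alternatives, with adjusted p from 0.00557 to 0.124, and was lost with DESeq2 (0.0604), without the filter (0.0857), with only its 2 groups fitted (0.0584) and without vehicle replicate 1 (0.107) or 2 (0.124) or its own replicate 2 (0.0549) or 3 (0.101). The Samul-tang call held under 7 of 10 and was lost with only its 2 groups fitted (0.159) and without vehicle replicate 2 (0.0590) or its own replicate 2 (0.230). CYP3A5 was the 1 member called in each of these comparisons, against 30.2% and 19.8% of all genes, and Palmul-tang medium called 0 members by edgeR and 0 by DESeq2 (of 5 with an adjusted p), with NR1I2 alone at an unadjusted p under 0.05, against 22.3% of all genes.

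At the high dose of each formula with replicates, the group mean of CYP3A5 lay between vehicle and low dose. Libraries stood at 7.21, 6.31 and 6.42 CPM in Palmul-tang, at 6.13, 6.28 and 6.04 CPM in Sibjeondaebo-tang and at 6.91 and 7.17 CPM in Samul-tang. All lay below the low-dose libraries of their own formula. From low to high dose CYP3A5 fell in Sibjeondaebo-tang (log2 fold change -0.39 ± 0.08, adjusted p = 0.00123, edgeR; 0.764-fold), and the call held under all 11 alternatives. Without Sibjeondaebo-tang low replicate 3, the library with the highest fibroblast marker sum, the value was -0.36 (adjusted p = 0.00905, edgeR). CYP3A7 then stood at -0.50 (adjusted p = 0.000484, edgeR). Without that library, CYP3A5 and CYP3A7 also passed the test in Sibjeondaebo-tang low against vehicle.

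The high against low log2 fold change of CYP3A5 was -0.26 in Palmul-tang (95% interval -0.44 to -0.09, adjusted p = 0.0545, edgeR) and -0.17 in Samul-tang (-0.38 to 0.03, adjusted p = 0.629). The Palmul-tang value passed with median-ratio size factors (adjusted p = 0.0497) and without Palmul-tang high replicate 1 (0.0380). High against vehicle, CYP3A5 stood at 0.18 ± 0.09 in Palmul-tang (adjusted p = 0.123), 0.06 ± 0.09 in Sibjeondaebo-tang (0.626) and 0.26 ± 0.09 in Samul-tang (0.0558), all by edgeR. The Samul-tang value passed with median-ratio size factors (0.0496) and without vehicle replicate 3 (0.0150), and the Palmul-tang value without vehicle replicate 3 (0.0273).

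Sagunja-tang single libraries gave CYP3A5 levels of 6.66 CPM at the low dose (exact Poisson 95% interval 5.66 to 7.79), 6.14 CPM at the medium (5.29 to 7.09) and 8.04 CPM at the high (7.01 to 9.18). The highest of the 3 was thus at the high dose, opposite to the order in the replicated formulas, and the counting intervals of low and high dose overlap. Over the 13 groups the mean of CYP3A5 was lowest in vehicle, at 5.91 ± 0.69 CPM (SD, n = 3), and highest in Sibjeondaebo-tang low, at 8.06 ± 0.44 CPM (SD, n = 3). Neighbouring groups in the order overlapped in 10 of 12 pairs.

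**Figure D3:**
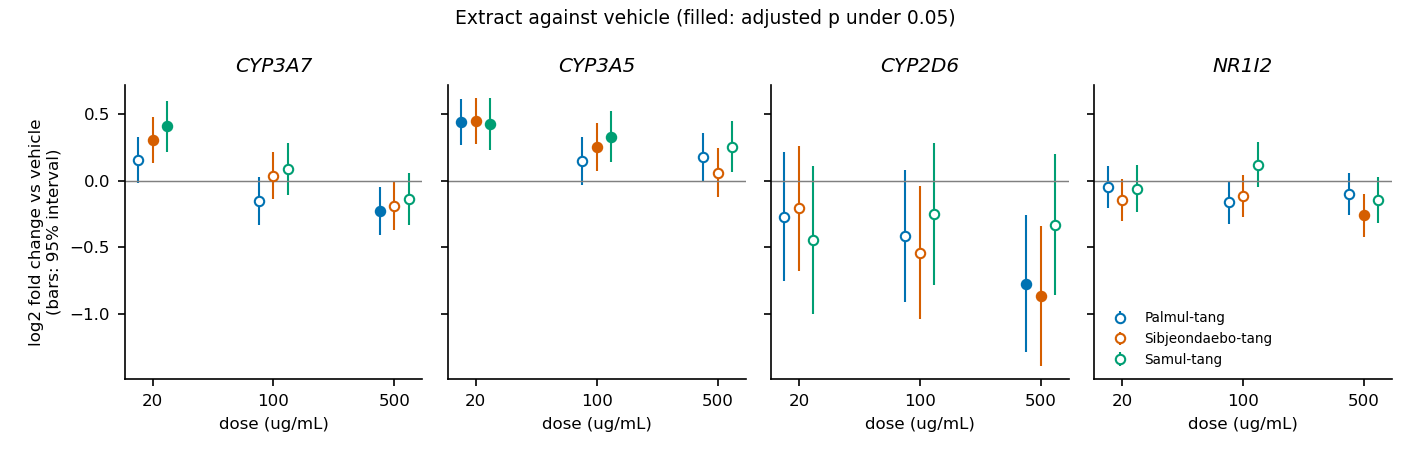
Log2 fold change against vehicle of CYP3A7, CYP3A5, CYP2D6 and NR1I2 at 20, 100 and 500 µg/mL (evenly spaced), with 95% intervals and filled points where the adjusted p was under 0.05. CYP3A5 is highest at the low dose, from 0.43 to 0.45, CYP3A7 crosses 0 between low and high dose, and CYP2D6 is lowest at the high dose of Palmul-tang and Sibjeondaebo-tang.

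CYP3A4, the main CYP3A enzyme of adult liver, was too low to judge. It had 4 to 20 counts a library, 8.7 on average, and group means from 0.181 CPM in Palmul-tang medium to 0.432 CPM in Sibjeondaebo-tang low. Vehicle libraries stood at 0.330, 0.221 and 0.261 CPM. In Sibjeondaebo-tang the low-dose libraries held 12, 20 and 12 counts and the high-dose libraries 10, 4 and 5, and the 2 groups did not overlap in counts but did in CPM. The log2 fold change was -0.88 with a 95% interval of -1.67 to -0.08 (adjusted p = 0.116, edgeR), and -1.48 without Sibjeondaebo-tang high replicate 1 (adjusted p = 0.0226). CYP3A4 passed edgeR's test in 0 of 13 comparisons, with 1 at an unadjusted p under 0.05, and DESeq2 gave it no adjusted p in any of the 13.

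CYP2D6, which metabolizes many antidepressants and opioids and is known to respond little to PXR, was called lower than vehicle at the high dose of 2 formulas. It lies at chr22:42126499-42130906 on the minus strand and had 16 to 53 counts a library. Vehicle libraries stood at 0.991, 1.47 and 1.57 CPM, Palmul-tang high at 0.845, 0.724 and 0.785 CPM and Sibjeondaebo-tang high at 0.952, 0.698 and 0.582 CPM. Both high-dose groups lay below all vehicle libraries. The log2 fold change against vehicle was -0.77 ± 0.25 in Palmul-tang (adjusted p = 0.0189, edgeR; 0.585-fold) and -0.87 ± 0.26 in Sibjeondaebo-tang (adjusted p = 0.00861, edgeR; 0.549-fold), with the same vehicle libraries.

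With these, 2 of 6 tested members were called in Palmul-tang high (CYP2D6 and CYP3A7) and 2 in Sibjeondaebo-tang high (CYP2D6 and NR1I2), all lower, against 31.8% and 36% of all genes called in either direction. CYP2D6 in Palmul-tang high was lost without vehicle replicate 2 (adjusted p = 0.0789) or 3 (0.0792) or Palmul-tang high replicate 2 (0.0734), and CYP2D6 in Sibjeondaebo-tang high without Sibjeondaebo-tang high replicate 3 (0.0544). In Samul-tang high, CYP2D6 libraries stood at 1.08 and 1.06 CPM, at a log2 fold change of -0.33 ± 0.26 (adjusted p = 0.411, edgeR). That comparison called 0 members by edgeR and 0 by DESeq2 (of 4 with an adjusted p), with CYP3A5 alone at an unadjusted p under 0.05, against 18.5% of all genes. CYP2D6 was also below vehicle at the medium and low doses, with no call. Medium-dose log2 fold changes were -0.41 in Palmul-tang, -0.54 in Sibjeondaebo-tang (adjusted p = 0.0947, edgeR) and -0.25 in Samul-tang. Low-dose values were -0.27, -0.21 and -0.44. The Sibjeondaebo-tang medium value passed without vehicle replicate 1 (adjusted p = 0.0420, edgeR) or its own replicate 1 (0.0291).

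Between low and high dose, CYP2D6 passed in no formula. Low-dose libraries stood at 0.837, 1.43 and 1.01 CPM in Palmul-tang, at 1.19, 1.31 and 0.981 CPM in Sibjeondaebo-tang and at 1.15 and 0.845 CPM in Samul-tang. The high against low log2 fold change was -0.50 (95% interval -1.03 to 0.02) in Palmul-tang, -0.66 (-1.18 to -0.13, adjusted p = 0.0702, edgeR) in Sibjeondaebo-tang and 0.12 (-0.49 to 0.72) in Samul-tang. The Sibjeondaebo-tang value passed when only its 2 groups were fitted (adjusted p = 0.0476) and without Sibjeondaebo-tang high replicate 1 (0.0380). The single Sagunja-tang libraries stood at 1.40, 0.963 and 0.881 CPM from low to high dose, with overlapping counting intervals.

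CYP2D6 has the near-identical copy CYP2D7 nearby, with 7 to 31.6 expected counts. Of 30 CYP2D6 values, 20 were not whole, so its counts are uncertain. The pseudogene CYP2D8P, also nearby, had 0 to 13 expected counts, whole in every library. Summed with both genes, the log2 difference from vehicle was -0.48 in Palmul-tang high (adjusted p = 0.0571, edgeR) and -1.02 in Sibjeondaebo-tang high (adjusted p = 0.000262, edgeR). The high against low log2 value of the sum in Sibjeondaebo-tang was -0.86 (adjusted p = 0.00325, edgeR). The sum was an alternative chosen after seeing the data. CYP2D7 on its own was lower than vehicle in Sibjeondaebo-tang high (-1.30, adjusted p = 0.00175, edgeR) and stood at -0.01 in Palmul-tang high (adjusted p = 0.997).

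CYP2B6, CYP2C8 and CYP2E1 failed the filter and were too low to judge. CYP2B6 (chr19:40991250-41018398, plus strand), the classical CAR target, had 5 counts among 894776874 in all 30 libraries, 0.00559 CPM with an exact Poisson 95% interval of 0.00181 to 0.0130. It had 1 count in each of 5 libraries and none in 25. CYP2C8 (chr10:95036772-95069497, minus strand), which metabolizes paclitaxel, had 0 to 11 counts a library, and CYP2E1 (chr10:133520406-133561220, plus strand), the ethanol-oxidizing form, had 1 to 10. In a single library 3 counts were worth 0.0796 to 0.139 CPM, so levels under this limit could not be told from 0.

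CYP2C8 counts were low in every group, with no count in the single Sagunja-tang medium library and 2 and 4 in Sagunja-tang low and high. Libraries held 6, 11 and 3 counts in vehicle, 2, 4 and 0 in Palmul-tang high, 2, 2 and 0 in Sibjeondaebo-tang high and 9 and 8 in Samul-tang high. Fitted without the filter over 31234 genes, CYP2C8 was at -2.08 ± 0.75 in Sibjeondaebo-tang high against vehicle (adjusted p = 0.0354, edgeR) and at -1.56 ± 0.70 in Palmul-tang high (adjusted p = 0.127). CYP2E1 and CYP2B6 passed in 0 of 13 such comparisons each, with 1 and 0 at an unadjusted p under 0.05. CYP2E1 counts were 4, 1 and 2 in vehicle and between 1 and 10 in extract libraries. CYP2E1 overlaps the opposite-strand gene SYCE1, which had 0 to 4 expected counts. These counts are too few for a dose order.

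**Figure D4:**
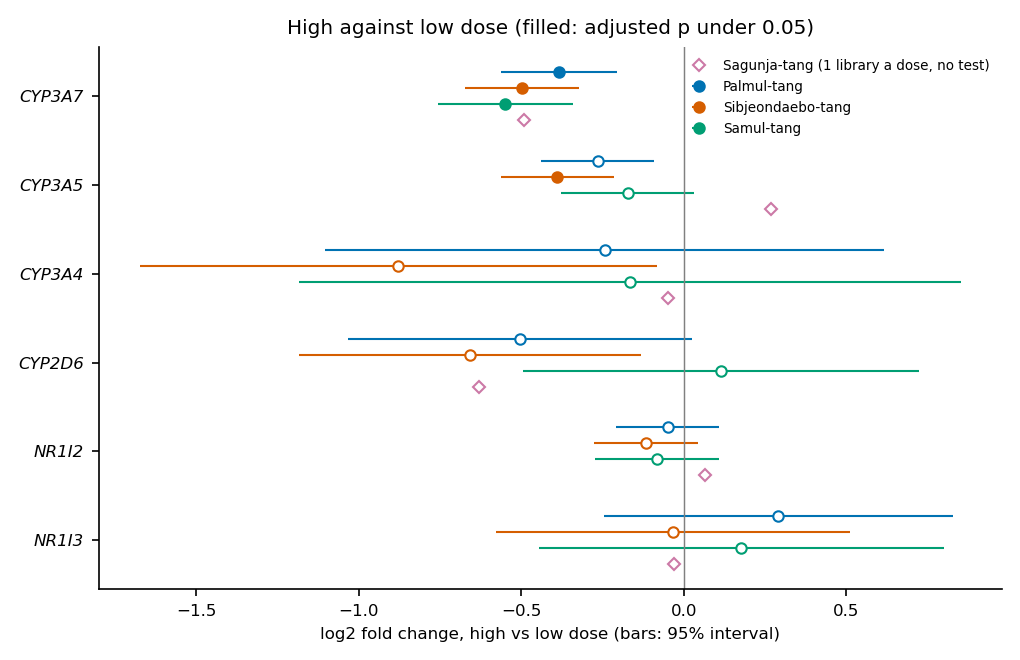
Log2 fold change of high against low dose for the 6 tested members in 3 formulas, with 95% intervals and filled points where the adjusted p was under 0.05, and the Sagunja-tang ratio of single libraries as an open diamond. CYP3A7 is below 0 in all 4 formulas, from -0.38 to -0.55, and the intervals of CYP3A4, CYP2D6 and NR1I3 are wider than those of CYP3A7, CYP3A5 and NR1I2.

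The formulas were not shown to differ in the dose response of any member. The difference of the high against low log2 fold change of CYP3A7 was -0.11 ± 0.12 between Sibjeondaebo-tang and Palmul-tang (adjusted p = 0.804), -0.16 ± 0.13 between Samul-tang and Palmul-tang (adjusted p = 1.0) and -0.05 ± 0.13 between Samul-tang and Sibjeondaebo-tang (adjusted p = 0.923), all tested in the same edgeR fit. For CYP3A5 these differences were -0.12 ± 0.12, 0.09 ± 0.13 and 0.22 ± 0.13. None of the 6 members passed in any of the 3 tests, none had an unadjusted p under 0.05, and 2%, 0.0124% and 1.68% of all genes passed. Sibjeondaebo-tang high against Palmul-tang high called 0 members by edgeR and 0 by DESeq2 (of 5 with an adjusted p), with 0 at an unadjusted p under 0.05, against 6.47% of all genes. CYP3A7 differed there by 0.04 (95% interval -0.15 to 0.22), CYP3A5 by -0.12 (-0.30 to 0.06) and NR1I2 by -0.16 (-0.32 to 0.004) on the log2 scale. NR1I2 passed there without Palmul-tang high replicate 2 (-0.28, adjusted p = 0.0419).

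Across the 13 group means of log2 CPM, CYP3A7 was most like UGT2B4, a glucuronidating enzyme (Pearson r = 0.928), C19orf25 (0.925) and PLXNC1 (0.925) among 10635 genes. CYP3A5 was most like ERV3-1 (0.845), TPST1 (0.783) and GBA2 (0.782). Genes with a pattern like that of NR1I2 included FOXRED1 (0.900) and TRIM13 (0.894), and CYP2D6 was most like B4GALNT4 (0.918), AMN (0.892) and NEK8 (0.889). Among the members themselves the correlation over the 13 means was 0.437 for CYP3A5 with CYP3A7, 0.180 for NR1I2 with CYP3A7 and 0.346 for NR1I2 with CYP3A5. The means come from groups of 1 to 3 libraries in 3 sets, and these values are a description.

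Other known PXR and CAR targets moved both ways. Of 18 on the list, 13 were tested. High against low dose, 5 were higher and 2 lower in Palmul-tang, 5 and 2 in Sibjeondaebo-tang and 3 and 1 in Samul-tang. Of all tested genes, 6.78%, 19.8% and 1.42% were called in these comparisons, in either direction. The median log2 fold change of the list was 0.07, 0.01 and 0.16, beside 0.00, 0.02 and 0.00 for all tested genes. UGT1A1, which glucuronidates bilirubin, rose by a log2 fold change of 1.01 in Palmul-tang (adjusted p = 1.82e-10), 0.88 in Sibjeondaebo-tang (1.35e-09) and 0.60 in Samul-tang (0.000526), all by edgeR. Its mean was 13.1 CPM in vehicle and 30.4 CPM in Palmul-tang high. UGT1A1 shares most of its exons with UGT1A6 and the other UGT1A genes, so its counts depend on how reads were divided.

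The efflux pump gene ABCC3 rose in Palmul-tang, Sibjeondaebo-tang and Samul-tang by 0.66, 0.30 and 0.60 (adjusted p = 1.04e-10, 7.02e-05 and 2.26e-07, edgeR). ABCC2, the canalicular pump for conjugates, rose by 0.40 in Palmul-tang and 0.32 in Samul-tang (adjusted p = 4.13e-08 and 0.000272) and stood at -0.09 in Sibjeondaebo-tang (adjusted p = 0.146). SULT2A1, a sulfotransferase for steroids and bile acids, was lower at the high dose, at -0.44, -0.44 and -0.34 (adjusted p = 4.94e-07, 1.75e-07 and 0.00215, edgeR). SULT2A1 averaged 149 CPM in Palmul-tang low and 110 CPM in Palmul-tang high. The other calls were ABCB1 and EPHX1, higher, and GSTA1, lower, in Palmul-tang and Sibjeondaebo-tang, and ALAS1, higher, in Sibjeondaebo-tang. GSTA1 has the near-copy GSTA2, so its counts are uncertain.

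**Figure D5:**
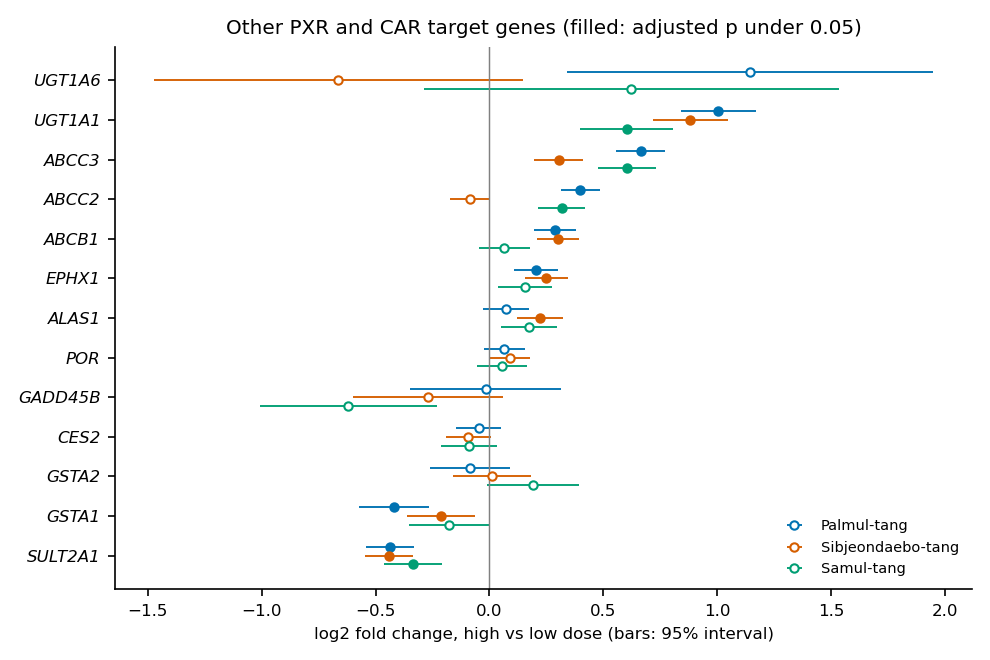
Log2 fold change of high against low dose for the 13 tested genes of the list of other PXR and CAR targets in 3 formulas, with 95% intervals and filled points where the adjusted p was under 0.05. UGT1A1 and ABCC3 are above 0 and SULT2A1 below 0 in all 3 formulas, and ABCC2 is called in Palmul-tang and Samul-tang.

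Among the other CYP1, CYP2 and CYP3 genes, 10 of 18 were tested. High against low dose, 3 were higher and 0 lower in Palmul-tang, 4 and 3 in Sibjeondaebo-tang and 1 and 0 in Samul-tang. List medians were 0.12, 0.13 and -0.11, and 6.78%, 19.8% and 1.42% of all tested genes were called. CYP1A1, the best known target of the aryl hydrocarbon receptor, rose by a log2 fold change of 3.40, 2.92 and 1.93 (adjusted p = 1.45e-21, 4.26e-20 and 1.07e-13, edgeR), from 16.9 to 178 CPM in Palmul-tang. CYP1A2, its neighbour, rose by 3.65 in Palmul-tang and 3.03 in Sibjeondaebo-tang (adjusted p = 6.48e-05 and 0.00169) at levels of at most 1.36 CPM in any library. CYP3A43, the remaining gene of the CYP3A cluster, was lower at the high dose in Sibjeondaebo-tang (-0.99, adjusted p = 0.000782) and stood at -0.55 in Palmul-tang (0.126) and -0.20 in Samul-tang (0.869). CYP2W1, an extrahepatic form found in tumours, was at -0.36 in Sibjeondaebo-tang (adjusted p = 0.000107, edgeR) from a mean of 72.7 CPM at the low dose.

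All 13 genes of the list of P450 redox partners and heme supply were tested. Between low and high dose 3 were higher and 1 lower in Palmul-tang, 4 and 2 in Sibjeondaebo-tang and 2 and 0 in Samul-tang. The list medians were 0.07, 0.10 and 0.04, beside 6.78%, 19.8% and 1.42% of all tested genes called. FECH, which inserts iron to form heme, rose by 0.30, 0.39 and 0.38 (adjusted p = 0.00288, 4.03e-05 and 0.00524, edgeR), and HMOX1, which breaks heme down, by 0.35, 0.33 and 0.35 (adjusted p = 0.000152, 0.000159 and 0.00581). CYB5A, an electron donor to several P450s, rose by 0.34 in Palmul-tang and 0.34 in Sibjeondaebo-tang (adjusted p = 0.000109 and 5.07e-05) and stood at 0.21 in Samul-tang (0.167). ALAD, an early enzyme of heme synthesis, was lower at -0.23 in Palmul-tang and -0.23 in Sibjeondaebo-tang (adjusted p = 0.0147 and 0.00549). POR, the electron donor of microsomal P450s, stood at 0.07, 0.09 and 0.05 and passed in no formula.

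Of 26 receptor partners, coregulators and hepatic factors, 25 were tested. High against low dose, 0 were higher and 5 lower in Palmul-tang and 4 higher and 4 lower in Sibjeondaebo-tang. In Samul-tang edgeR called 0, with 9 at an unadjusted p under 0.05, and DESeq2 called 1, lower. Medians were -0.10, 0.03 and -0.14, and edgeR called 6.78%, 19.8% and 1.42% of all tested genes. CEBPA, a liver-enriched factor, was lower at the high dose, with a log2 fold change of -0.43 in Palmul-tang and -0.22 in Sibjeondaebo-tang (adjusted p = 1.92e-07 and 0.00132, edgeR), and NR1H4, the bile acid receptor FXR, was at -0.37 and -0.32 (adjusted p = 1.75e-06 and 7.47e-06). The coactivator NCOA3 was also lower, at -0.25 and -0.19 (adjusted p = 0.000246 and 0.00208). FOXA1 was lower in Palmul-tang (-0.24, adjusted p = 0.00731) and stood at -0.10 in Sibjeondaebo-tang (0.215), while EGFR, through which CAR is held inactive, was higher in Sibjeondaebo-tang (0.29, adjusted p = 0.00131). RXRA, the main partner of PXR, stood at -0.18, -0.01 and -0.14 and passed in no formula.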

How the data were processed

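Per the submitters' processing notes, the authors processed the 100 bp paired-end reads with RSEM 1.3.3 and STAR 2.7.3a, after Trim Galore 0.6.5 and FastQC 0.11.9, on hg38 (GRCh38). They deposited expected counts per Ensembl gene, of which 8.558% were not whole (tolerance 1e-09), so the values were rounded before testing. The annotation release and the strand setting of the counting are not given in the sources used here. Of the table's columns, 240 belong to no sample used here, and the Wortmannin control was not analysed here. Symbols and positions came from GENCODE 29, promoter windows from RefSeq.

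Levels are CPM with TMM factors over 30 libraries, as mean ± SD. The quasi-likelihood test of edgeR 4.0.16 (R 4.3.3) was fitted to 27 libraries in 10 groups without covariates, after the default filter (minimum count 10, minimum total 15), with Benjamini-Hochberg adjustment over 16083 genes, a threshold of 0.05 and 13 comparisons. Sagunja-tang, with 1 library a dose, had no test. DESeq2 1.42.0, median-ratio factors, no filter, fits of 2 groups, a replicate block and leaving out each library were alternatives. Sums of members with genes nearby and the differences between formulas were added after seeing the data. The code was tested on simulated data. Intervals for single libraries cover counting error only.

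The members and lists were chosen with earlier results of these data known. From each list the up to 4 genes with the smallest adjusted p between high and low dose are named, and other genes named beside them were chosen after their values were seen. Genes called alike were those with the highest Pearson correlation over the 13 group means and a mean log2 CPM of at least 2. Some genes that these rules would name are not reported here.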

Additional observations from a re-analysis of the deposited data

Results flagged for a closer look

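The high to low change of CYP3A5 had the opposite sign in the single Sagunja-tang libraries from that in the other formulas. Its high to low log2 ratio was 0.27 in the single Sagunja-tang libraries, while every high-dose library of Palmul-tang, Sibjeondaebo-tang and Samul-tang lay below every low-dose library of the same formula. The difference was not tested, since Sagunja-tang has 1 library a dose. Its counting intervals at the low (5.66 to 7.79 CPM) and high dose (7.01 to 9.18 CPM) overlap. Among the other formulas the fall was called in Sibjeondaebo-tang only.

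NR1I2 stood at a high to low log2 ratio of 0.07 (0.066) in Sagunja-tang, while every high-dose library of Sibjeondaebo-tang lay below every low-dose library. This difference was not tested either.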

How the results depend on the processing

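Of 824 tested values of members under alternatives, 783 kept their side of the threshold, 27 lost the call, 14 gained it and 0 reversed. Among the 783, 39 values that were uncalled in both settings changed sign. DESeq2 gave no adjusted p for 20 of its 78 values, which are left out. Pairing by replicate number was not evident: same-numbered libraries correlated from -0.3236 to 0.2269 where there were 3 pairs. In Sibjeondaebo-tang high against low these values were all positive, from 0.01649 to 0.1174. With Samul-tang, which has only 2 pairs, same-numbered libraries correlated from 0.1102 to 0.3205, too few pairs to call them paired. Differently numbered libraries were not compared between groups, so this check cannot exclude pairing within a set. A replicate block moved none of 104 values, with CYP3A7 high against low at -0.38, -0.50 and -0.55 and 1154, 3330 and 256 genes called under the block.

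Members called in Palmul-tang high against vehicle numbered 2, and 1 with DESeq2, 1 with median-ratio factors and 1 without the filter. In Sibjeondaebo-tang medium 1 was called, and 0 with DESeq2, 0 without the filter and 0 with only the 2 groups compared. In Samul-tang high 0 were called, and 1 with median-ratio factors. In Samul-tang medium 1 was called, and 0 with only the 2 groups compared, where genes called dropped from 3188 to 261. Palmul-tang high against low called 1 member, and 2 with median-ratio factors. Samul-tang high against low called 229 genes, and 376 without the filter.

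Leaving out 1 library, members called ranged from 0 to 2 in Palmul-tang high against vehicle (0 without its replicate 2), 1 to 3 in Sibjeondaebo-tang high, 0 to 2 in Sibjeondaebo-tang medium, 1 to 2 in Sibjeondaebo-tang low, 0 to 1 in Samul-tang high, 0 to 1 in Samul-tang medium, 1 to 2 in Samul-tang low, 1 to 2 in Palmul-tang high against low, 2 to 4 in Sibjeondaebo-tang high against low and 0 to 1 in Sibjeondaebo-tang high against Palmul-tang high. Genes called against vehicle ranged from 2309 to 3424 in Palmul-tang medium (main 3594, lowest without its replicate 3), 2392 to 3187 in Palmul-tang low (3727) and 2284 to 3156 in Sibjeondaebo-tang low (3696), both lowest without vehicle replicate 2. They ranged from 1300 to 2387 in Samul-tang high (2978; 1799 without its replicate 3), 747 to 4675 in Samul-tang medium (3188) and 604 to 1436 in Samul-tang low (1811; 1047 without vehicle replicate 2). Between high and low dose they ranged from 702 to 827 in Palmul-tang (1091, lowest without its low replicate 2), 2042 to 2582 in Sibjeondaebo-tang (3191, lowest without its high replicate 3) and 85 to 108 in Samul-tang (229). Sibjeondaebo-tang high against Palmul-tang high ranged from 545 to 925 (1041; 675 without Palmul-tang high replicate 1). Without 1 Samul-tang library the lone one is assumed to vary like the other groups. The share of calls that were higher in Sibjeondaebo-tang high against Palmul-tang high was 27.09%, 14.99% with median-ratio factors, 17.01% without the filter and 14.85% with only the 2 groups. It was 10.35% or 8.073% without Sibjeondaebo-tang high replicate 1 or 3 and 8.417% or 14.81% without Palmul-tang high replicate 2 or 3. In Sibjeondaebo-tang high against low it was 52.43%, 39.84% without the filter and 38.45% or 41.48% without its high replicate 1 or 3. In Samul-tang high against low it was 49.78%, 61.17% without the filter and 61.63% or 61.11% without its high replicate 2 or 3.

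Depth limits CYP3A4, CYP2C8, CYP2E1 and CYP2B6, whose means were 8.7 counts a library or fewer. Of 108 group levels above 0, 5 moved without TMM factors, by more than 1 SD or, for a single library, beyond its counting interval.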
